A study of Caenorhabditis elegans with 6 samples.

Results

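The par genes of Caenorhabditis elegans, par-1 to par-6, encode the partitioning defective proteins, which set up cell polarity. The members were chosen by name, and par-1 was picked for its level in alg-2(ok304), so that its values are given as a description. Of the 6 genes, 4 were among the 5739 genes of the deposited table, namely par-1, par-2, par-3 and par-5. par-4 and par-6 were not listed. The authors kept genes by a minimum level, but this filter cannot be retraced from the deposited values. A gene that is not listed therefore need not have been low. The experiment compared RNA on neuronal polysomes from worms carrying the deletion allele alg-2(ok304), which removes one of the Argonaute proteins of the miRNA pathway, with that of wild-type worms. There were 3 libraries in each group. All worms were harvested at the L4 stage as large pooled populations and carried a single-copy transgene on chromosome IV, in which the pan-neuronal rgef-1 promoter drives a tagged RPL-18, a ribosomal protein. The polysomes were pulled down from lysates of whole animals with beads against FLAG. For the alg-2(ok304) strain the study's strain list gives the tag as HA, whereas it gives FLAG in wild type. The headers of the alg-2(ok304) columns also carry the words ALG1 KO beside the number of that strain, and the group is named here by its labels.

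PAR proteins were found through worm embryos whose first division lost its asymmetry, and related proteins polarize epithelia and neurons in many animals. PAR-3 and PAR-6 are scaffolds that hold an atypical protein kinase C at the anterior cortex, while the RING finger protein PAR-2 and the kinase PAR-1 take the posterior cortex, and both sides exclude each other. PAR-4, the worm counterpart of the kinase LKB1, and PAR-5, which belongs to a family of proteins that bind phosphorylated partners, act throughout the cell. In mammalian neurons, kinases of the PAR-1 family phosphorylate microtubule-associated proteins and take part in axon specification.

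The library columns did not hold counts of reads. In the alg-2(ok304) libraries, replicates 2 and 3 held 1.17 and 2.24 times the value of replicate 1 in every gene above 0, and in wild type 1.40 and 1.52 times. Each column is therefore 1 modelled level per group, rescaled to the size of each library, and its values are called fitted reads here. Fitted reads hold no spread between replicates, so that no error, interval or test could be computed from these columns for any gene, and each comparison below sets 1 fitted level per group against another. Fitted totals were 4769250 to 10706566 in the alg-2(ok304) libraries and 11656552 to 17692391 in wild type, and ribosomal RNA genes held 85.1% of them in alg-2(ok304) and 97.9% in wild type. Levels are also given as CPM, fitted reads per 1000000 fitted reads outside ribosomal RNA. Genes within 2 kb of ribosomal RNA genes held 14.6% of those reads in alg-2(ok304) and 55.5% in wild type, so that a CPM value depends on whether they are counted in. The depth behind the par genes was thus low in wild type, where the listed members summed to 24.1 fitted reads.

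The targeted gene was read first. alg-2 had 2.51, 2.95 and 5.65 fitted reads in the alg-2(ok304) libraries and 4.24, 5.92 and 6.43 in wild type. Its log2 ratio was -2.32 on the common scale used for the par genes. On that scale a ratio of -2 or less counts as lower, as it was in 12.5% of the genes above 0 in at least one group. With the scale set by genes of 10 or more fitted reads, alg-2 would not reach -2. On the scale of the totals of all genes, which adds 3.04 to every ratio before the pseudocount, it would be above no change. Reads on the gene also count outside a deleted stretch, so that these values do not check the labels, and alg-1 was not listed. The labelled cell type was read from marker lists. Of 20 neuronal markers 7 were listed, and rgef-1, rab-3 and unc-119 were not. The listed neuronal markers summed to 25.5 CPM in alg-2(ok304) and 12.2 in wild type. All 15 body wall muscle markers were listed, with sums of 2199 CPM in alg-2(ok304) and 4225 CPM in wild type, of which ttn-1 alone made up 1610 CPM in alg-2(ok304) and 3059 CPM in wild type. Hypodermal markers, 10 of 15 listed, summed to 418 CPM in alg-2(ok304) and 902 CPM in wild type. The collagen genes sqt-1 and sqt-3 held much of the wild-type sum, at 17.2 and 25.31 CPM in alg-2(ok304) and 302 and 296 CPM in wild type. On the common scale the median log2 ratio was -0.79 for the body wall muscle list and 0.50 for the hypodermal list. Over all genes above 0 in at least one group it was 0.76. For markers above 0 in both groups it was -1.14 in body wall muscle and -0.47 in hypodermis, against 0 for all such genes. Of these markers, 3 of body wall muscle were above no change and 10 below it, and 4 of hypodermis lay on each side. Intestinal markers, 11 of 15, summed to 302 CPM in alg-2(ok304) and 275 CPM in wild type, and germline markers, 7 of 15, to 15.03 CPM in alg-2(ok304) and 9.05 CPM in wild type. When the genes within 2 kb of ribosomal RNA were left out of the total, the neuronal sums came to 29.9 per 1000000 in alg-2(ok304) and 27.5 in wild type, and the order of the groups turned for the intestine, at 354 in alg-2(ok304) and 618 in wild type, and for the germline, at 17.6 in alg-2(ok304) and 20.3 in wild type. Markers of tissues other than neurons were thus listed in both groups, and the part of such RNA in the levels of the par genes was not tested. More cells with a transcript and more of it per cell cannot be told apart in such libraries.

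par-1 stood far above the other members in alg-2(ok304) and below par-2 and par-5 in wild type. The gene encodes the serine/threonine kinase of the MARK family that marks the posterior cortex (WBGene00003916; chromosome V, 14112033 to 14145367 of WBcel235, minus strand, 18 annotated transcripts). It had 304, 357 and 682 fitted reads in the alg-2(ok304) libraries, against 0.777, 1.09 and 1.18 in wild type. The libraries of both groups did not overlap in these unscaled values, which follows from the choice of the gene and from the single fitted level per group. Summed over a group these were 1343 fitted reads (427 CPM) in alg-2(ok304) and 3.04 fitted reads (3.18 CPM) in wild type. By its sum, par-1 ranked 62 of the 5739 genes in alg-2(ok304) and 1772 in wild type. The wild-type level rests on about 3 fitted reads over 3 libraries, so that the size of the ratio is poorly fixed even before replicate error, which cannot be seen.

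**Figure D1:**
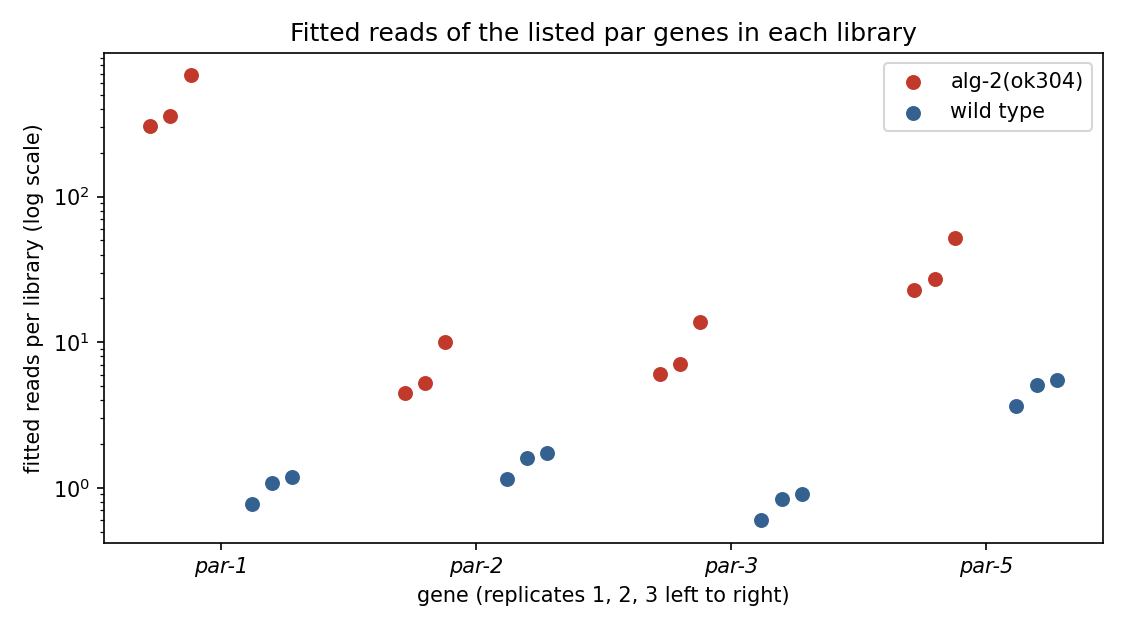
Fitted reads (log axis) of the 4 listed par genes in each library, with the alg-2(ok304) libraries in red on the left of each gene and the wild-type libraries in blue on the right, replicates 1 to 3 from left to right. The same steps between replicates recur in every gene because the columns are fitted values, and par-1 lies at 304 to 682 fitted reads in alg-2(ok304) against 0.777 to 1.18 in wild type.

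To compare the groups on a common scale, the log2 of alg-2(ok304) over wild-type fitted reads was computed for the 2659 genes above 0 in both groups, and its median, 1.93, was taken as no change. A pseudocount of 0.5 fitted reads was then added to the group sums on the wild-type scale, and a log2 ratio of at least 2 in either direction, a fold of 4, was counted as past the fold. The log2 ratio of par-1 was 6.64, a fold of 99.8, and without the pseudocount it was 6.86. It ranked 10 among the ratios of all listed genes. Of the 4 listed members, par-1 was past the fold, higher in alg-2(ok304), and 0 were past it in the other direction. Among the 4786 genes above 0 in at least one group, 28.2% were past the fold as higher in alg-2(ok304) and 12.5% as lower, and among the 2659 genes above 0 in both groups these shares were 9.36% and 15.1%. At a log2 ratio of at least 1, par-1 and par-3 were counted as higher, 2 of the 4, and 0 as lower, against 46.1% and 21.4% of the genes above 0 in at least one group and 26.2% and 27.5% of those above 0 in both. As par-1 was picked for this level, nothing is read from the counts. Scaling by the totals of all genes would put 75.7% of the genes past the fold as higher and 5.98% as lower, and the totals outside ribosomal RNA and the genes within 2 kb of it 19.1% and 15.8%. On these scales the log2 ratio of par-1 was 9.68 and 5.91.

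**Figure D2:**
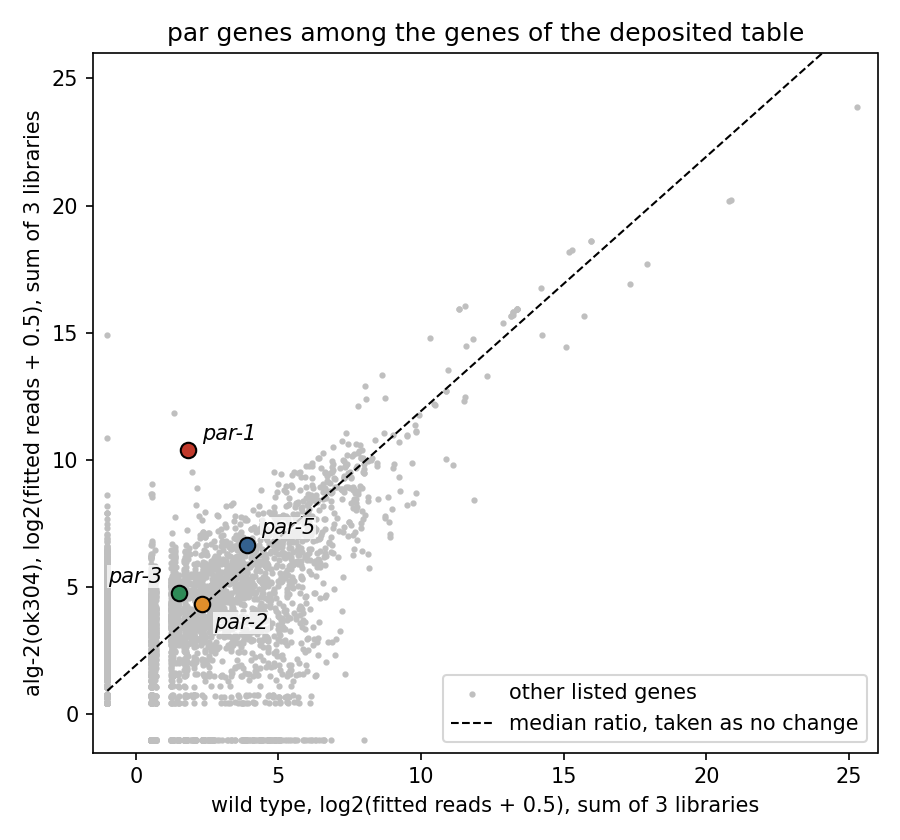
Group sums of fitted reads on a log2 scale with a pseudocount of 0.5, alg-2(ok304) on the y axis and wild type on the x axis, for the 4786 genes above 0 in at least one group; the dashed line marks the median ratio taken as no change. par-1, at 1343 fitted reads in alg-2(ok304) and 3.04 in wild type, lies far above the line, and par-2, par-3 and par-5 lie within the cloud of the other genes.

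par-2 encodes the RING finger protein that shares the posterior cortex with PAR-1 (WBGene00003917; chromosome III, 1081401 to 1095082, plus strand). It had 4.45, 5.22 and 9.99 fitted reads in the alg-2(ok304) libraries, against 1.15, 1.60 and 1.74 in wild type. The groups did not overlap as deposited, but these values are 1 fitted level per group without replicate spread, before the groups are put on a common scale. On the common scale the log2 ratio was 0.19, at percentile 36.7 of all genes above 0 in at least one group. It turned to -0.46 on the scale of the totals outside ribosomal RNA and the genes within 2 kb of it, so that no direction can be given for par-2. Its levels were 6.25 CPM in alg-2(ok304) and 4.69 CPM in wild type, and the order turned to 7.32 in alg-2(ok304) and 10.5 in wild type without the genes within 2 kb in the total.

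par-3 encodes the PDZ domain scaffold of the anterior cortex, which in worms also acts in epithelia (WBGene00003918; chromosome III, 5664233 to 5676795, plus strand, 16 annotated transcripts). It had 6.09, 7.15 and 13.7 fitted reads in the alg-2(ok304) libraries, against 0.598, 0.835 and 0.908 in wild type, the lowest sum of the 4 listed members in wild type. The log2 ratio was 1.41, a fold of 2.66, which is short of the fold counted, and 62.5% of all genes above 0 in at least one group had a lower one. F54E7.9, a protein-coding gene on the opposite strand, overlaps the last 184 bases of par-3 with exons of both genes. It had 19.9 fitted reads in alg-2(ok304) and was listed at 0 in wild type. No source used here says that the reads were counted by strand, so reads of these bases cannot be told apart between both genes.

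par-5 encodes one of the pair of worm 14-3-3 proteins, adaptors that bind phosphorylated proteins and help keep the anterior and posterior PAR proteins apart (WBGene00003920; chromosome IV, 11820506 to 11821924, minus strand). It had 23.0, 27.02 and 51.7 fitted reads in the alg-2(ok304) libraries, against 3.64, 5.08 and 5.52 in wild type, where it was the highest of the listed members. The log2 ratio was 0.88, at percentile 51.4 of all genes above 0 in at least one group. Its paralog ftt-2 of chromosome X, the other worm 14-3-3 gene, had 71.4 fitted reads over the alg-2(ok304) libraries and 37.2 over wild type, a log2 ratio of -0.97. On the common scale the ratios of both paralogs thus had opposite signs, and neither was past the fold. On the scale of the totals over all genes, which adds 3.04 to every ratio before the pseudocount, both would be above no change. The sources used here do not say how reads that fit both genes were counted.

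All 4 listed members were above the ratio of no change on the main scale, with a median log2 ratio of 1.15. Only genes that passed the authors' minimum level were listed. In wild type all 4 members had few fitted reads, the highest being par-5 at 14.2 over the group. Each was still above the wild-type median of 0.947 over all listed genes. Genes with so few reads in wild type may have been listed for their alg-2(ok304) levels, which would favour ratios above no change. The filter cannot be retraced, so this was not tested, and nothing is read from the shared direction. All 4 were above 0 in both groups, where by construction the median was 0 and 50.0% of the genes lay above no change, while over the 4786 genes above 0 in at least one group the median was 0.76 and 66.0% lay above it. par-2 was below it on the scale without ribosomal RNA and the genes within 2 kb of it. Under each of the scales and pseudocounts tried, par-1 had the largest ratio of the members and par-2 the smallest, with par-3 above par-5. A change of scale moves all members together, so this order among them can change only through the pseudocount. The authors' average log2 CPM, over libraries that the table does not name, was 1.42 for par-1, 0.56 for par-5, -2.28 for par-3 and -2.56 for par-2. The base of their CPM is not stated, so these values cannot be set beside the CPM defined here.

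**Figure D3:**
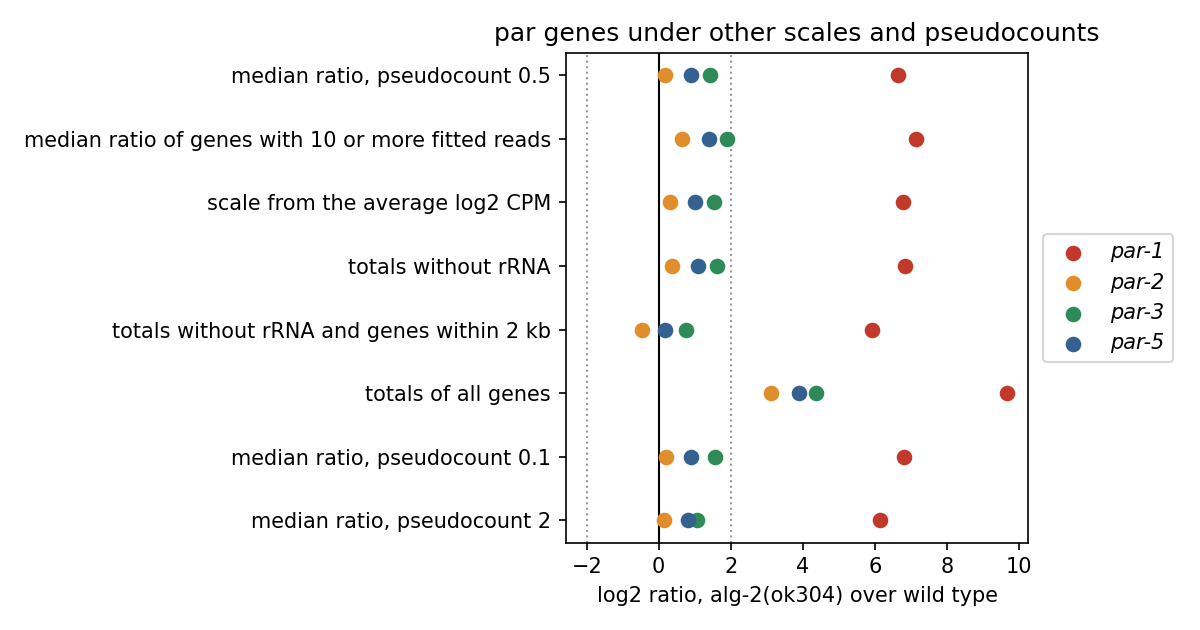
The log2 ratio, alg-2(ok304) over wild type, of the 4 listed par genes under each scale and pseudocount tried; the solid line marks no change and the dotted lines a log2 ratio of 2 in either direction. par-1 ran between 5.91 and 9.68, and the other members passed 2 only when the totals of all genes set the scale.

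The order of the members within a group was read per length of the merged exons, which were 6697 bases for par-1, 2639 for par-2, 5353 for par-3 and 1259 for par-5. In alg-2(ok304), par-1 had 200.5 fitted reads per kb, par-5 had 80.8, par-2 had 7.45 and par-3 had 5.03. In wild type, par-5 had 11.3 fitted reads per kb, par-2 had 1.70, par-1 had 0.454 and par-3 had 0.437. par-1 was thus 2.48 times par-5 in alg-2(ok304) and 0.0401 times par-5 in wild type. In the order of wild type par-1 and par-3 were neighbours, at a ratio of 1.04, and without replicate spread it cannot be said whether any neighbours in either order differ. par-1 made up 90.1% of the fitted reads of the listed members in alg-2(ok304) and 12.6% in wild type, while par-5 made up 6.82% in alg-2(ok304) and 59.1% in wild type. Without par-1, the other listed members summed to 148 fitted reads in alg-2(ok304) and 21.1 in wild type.

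Genes that lie on or beside par-1 were examined for the same pattern. Of the 6 annotated genes that overlap par-1, including the protein-coding AH10.4 in an intron and H39E23.2, which shares 14 bases with it on the opposite strand, 0 were listed. Of the 84 annotated genes within 100 kb of par-1, 14 were above 0 in at least one group. Of these, 5 were past the fold as higher in alg-2(ok304), or 35.7%, and 2 as lower, or 14.3%, against 28.2% and 12.5% of all genes above 0 in at least one group. Their highest level in alg-2(ok304) was that of ddx-17, with 67.4 fitted reads against 2.76 in wild type. None of these 14 genes reached the 1343 fitted reads of par-1.

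The genes with the pattern most like par-1 were taken as the 3 nearest by Euclidean distance between log2 group sums with the pseudocount, over the 2 group levels. These were tim-1, C34E11.15 and Y108G3AL.2, at distances of 0.89, 1.53 and 1.53. tim-1 of chromosome III, the worm counterpart of timeless, had 732 fitted reads in alg-2(ok304) and 3.43 in wild type, a log2 ratio of 5.62. The non-coding RNA gene C34E11.15 of chromosome X had 3680 fitted reads in alg-2(ok304) and 2.04 in wild type, with a ratio of 8.57. Y108G3AL.2 of chromosome V had 477 fitted reads in alg-2(ok304) and 3.97 in wild type, a ratio of 4.81. Many genes have such low levels in wild type, and the likeness rests on the 2 levels alone.

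Partners and targets of the PAR proteins were read from 8 lists of 67 genes in all. Of these, 32 were listed, 27 were above 0 in at least one group and 18 in both. Of the 27, 7 were past the fold as higher in alg-2(ok304), or 25.9%, and 2 as lower, or 7.41%, against 28.2% and 12.5% of all genes. Their median log2 ratio was 0.73, against 0.76 for all genes. Of the 7, lgl-1, plk-1, ani-1, goa-1 and hmp-1 were listed at 0 in wild type and passed through the pseudocount, so that no fold is given for them. Among the 18 genes above 0 in both groups, 2 were past the fold in each direction, against 9.36% higher and 15.1% lower of all such genes. Of these 18 genes, 8, or 44.4%, were above the ratio of no change and 10 below it, against 50.0% of all such genes above it. These shares lie near the background.

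Around PAR-4, whose own gene was not listed, 4 of 8 genes of its kinase module were listed. mop-25.2 and mop-25.3, which encode relatives of the LKB1 adaptor MO25, were listed at 0 in both groups. The catalytic subunits of AMP-activated kinase, a target of LKB1 in mammals, had 27.1 fitted reads in alg-2(ok304) and 4.28 in wild type for aak-2, and 1.63 in alg-2(ok304) and 0.981 in wild type for aak-1. Their log2 ratios on the common scale, 0.67 and -0.67, had opposite signs, but both levels of aak-1 lie near the floor. On the scale of the totals of all genes both ratios would be above no change. Of the 7 genes around PAR-3 and PAR-6, the cortical polarity gene lgl-1 was listed, at 6.84 fitted reads in alg-2(ok304) and 0 in wild type, while pkc-3 and cdc-42 were not.

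Genes that act on cytoplasmic polarity beside or after PAR-1 were represented by 3 of 10. The kinase gene mbk-2 had 76.1 fitted reads in alg-2(ok304) and 2.12 in wild type, a log2 ratio of 2.97. The Polo kinase gene plk-1 had 20.5 fitted reads in alg-2(ok304) and was listed at 0 in wild type. mex-5, whose protein is a substrate of PAR-1 in the embryo, was listed at 0 in both groups, and ptl-1, the worm gene related to tau, was not listed.

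Of 12 genes of cortical actomyosin and its regulation, which carry PAR proteins by cortical flow in the embryo, 9 were listed and 5 were above 0 in both groups. The myosin phosphatase gene mel-11 had 18.01 fitted reads in alg-2(ok304) and 1.11 in wild type, a log2 ratio of 1.70. The non-muscle myosin genes nmy-2 and nmy-1 had log2 ratios of 0.73 and -1.36. act-1 had 81.9 fitted reads in alg-2(ok304) and 81.2 in wild type, a log2 ratio of -1.89 on the common scale, and other actin genes of near-identical sequence could share its reads. ect-2, mlc-5 and ani-1 were listed at 0 in wild type and at 2.34 to 11.04 fitted reads in alg-2(ok304).

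Genes that place the spindle under PAR control had 5 of 9 listed. The Go alpha subunit gene goa-1 had 14.96 fitted reads in alg-2(ok304) and was listed at 0 in wild type. The dynein heavy chain gene dhc-1 had 25.9 fitted reads in alg-2(ok304) and 21.1 in wild type, with a log2 ratio of -1.56. Epithelial polarity genes had 5 of 10 listed, and they held the widest range of the lists. The E-cadherin gene hmr-1 had 72.1 fitted reads in alg-2(ok304) and 0.957 in wild type, a log2 ratio of 3.74. dlg-1, which encodes the Discs large scaffold of the apical junction, had 2.55 fitted reads in alg-2(ok304) and 41.6 in wild type, a log2 ratio of -5.17. ajm-1, whose product lies at the same junction and is held there by DLG-1, had 179 fitted reads in alg-2(ok304) and 41.5 in wild type, a ratio of 0.18. The spectrin gene sma-1 had 201 fitted reads in alg-2(ok304) and 14.6 in wild type, a ratio of 1.82.

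Genes of axon polarity and microtubules, the setting closest to the labelled cells, had 4 of 10 listed, all above 0 in both groups. The ankyrin gene unc-44 had 163 fitted reads in alg-2(ok304) and 17.1 in wild type, a log2 ratio of 1.29. The kinesin genes unc-116 and unc-104 had log2 ratios of -1.88 and -0.06. klp-7, which encodes a kinesin that takes microtubules apart, had 1.17 fitted reads in alg-2(ok304) and 3.01 in wild type, a ratio of -2.12. Both levels of klp-7 lie near the floor, so that the size of this ratio is poorly fixed. With a pseudocount of 2, 1 polarity gene was left past the fold as lower. Directions within these lists depend on the scale. On that of the totals of all genes, 20 of the 27 genes were past the fold as higher and 1 as lower, against 75.7% and 5.98% of all genes. On that without ribosomal RNA and the genes within 2 kb of it, 6 were past it in each direction, against 19.1% and 15.8% of all genes.

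**Figure D4:**
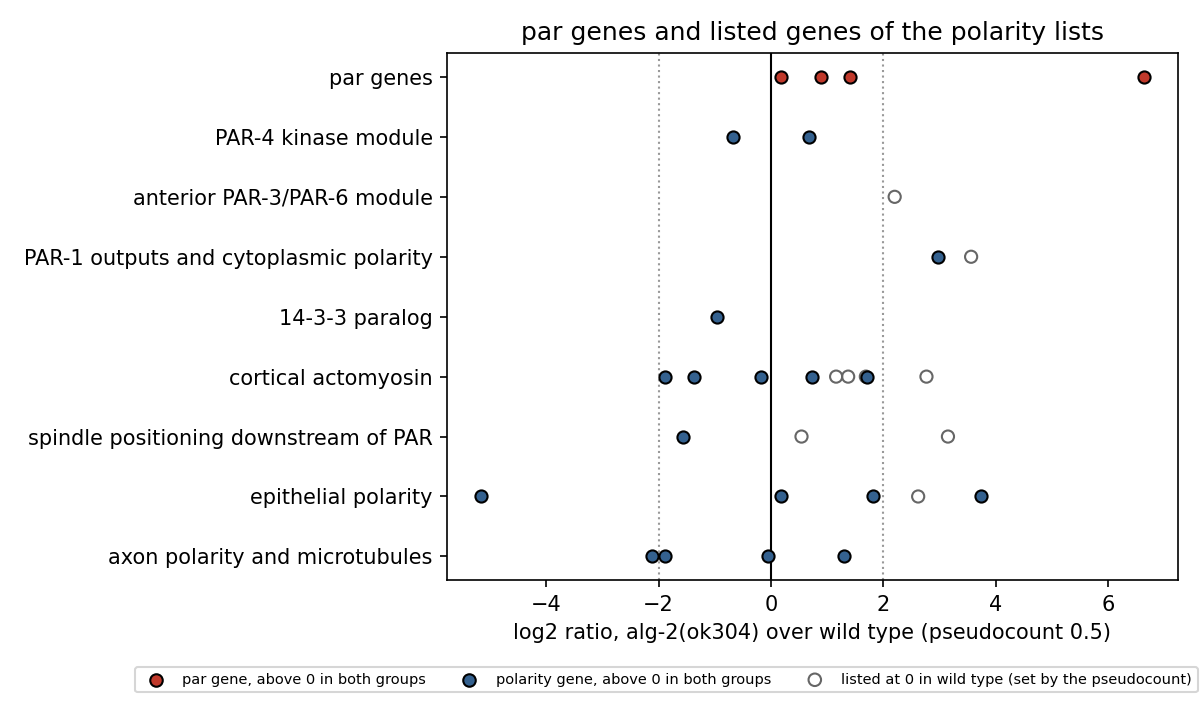
The log2 ratio, alg-2(ok304) over wild type, with a pseudocount of 0.5 for the 4 listed par genes (red) and the listed genes of the 8 polarity lists that were above 0 in at least one group (blue); open circles are genes listed at 0 in wild type, whose place is set by the pseudocount. par-1 at 6.64 lies beyond every gene of the lists, of which hmr-1 at 3.74 was the highest above 0 in both groups and dlg-1 at -5.17 the lowest.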

How the data were processed

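Polysome RNA from 6 libraries was compared, 3 of alg-2(ok304) and 3 of wild type. After trimming with cutadapt (version 2.10), the authors mapped the reads to WBcel235 by HISAT2, assigned them to Ensembl genes (release 96) by featureCounts from Subread 2.0.0, filtered genes at a minimum of 1 CPM in 2 or more libraries and tested the groups in edgeR (version 3.11). For each gene the deposited table gives fitted reads per library, an average log2 CPM by the authors, and the p-value and FDR of their comparison. The deposited p-value and FDR columns were not used. The number of columns left out for want of a label was 0. That the columns are fitted values was read from their proportionality within a group (largest relative range 8.8e-09), so that the edgeR test planned in case of read counts was not run.

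Fitted reads were summed over a group. Python 3.11.15, numpy 2.4.6, pandas 2.3.3 and matplotlib 3.10.9 were used. The code for the median scale was run on simulated data, of genes above 0 in both groups with a shift set beforehand. That run does not bear on genes at 0 in either group, nor on the choice between the scales. Exon lengths and coordinates were those of Ensembl release 115 (WBcel235), in which 5733 of 5739 identifiers had an entry. Named were the par genes, alg-2, alg-1 and rpl-18, the polarity genes past the fold and up to 5 with the highest and lowest ratios, the 3 genes nearest to par-1, and genes overlapping a par gene; ddx-17, ttn-1, sqt-1, sqt-3 and other polarity genes were named after their values were seen. The result for another gene of the polarity lists is not reported here. rpl-18, whose reads can include those of the transgene, had 317 fitted reads in alg-2(ok304) and 66.9 in wild type, a log2 ratio of 0.31. The members, lists and scales were chosen with earlier results of these data known. Alternatives were other scales, pseudocounts of 0.1 and 2, a log2 ratio of at least 1 and a minimum of 10 fitted reads. The scale from the average log2 CPM was fitted over 563 genes of at least 100 fitted reads in all.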

Additional observations from a re-analysis of the deposited data

How the results depend on the processing

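Shares in this paragraph are those of all genes under the same setting. When the totals of all genes set the scale, the log2 ratio of par-1 was 9.68, 4 listed par genes were past the fold as higher in alg-2(ok304), and of the 27 polarity genes 20 were past it as higher and 1 as lower (shares 75.7% and 5.98%). With the totals outside ribosomal RNA and the genes within 2 kb of it, par-1 had 5.91, and 6 polarity genes were past the fold as higher and 6 as lower (19.1% and 15.8%). With the scale set by genes of 10 or more fitted reads, 10 polarity genes were past it as higher and 1 as lower (34.4% and 10.5%). With a pseudocount of 2 these were 2 higher and 1 lower (8.55% and 8.59%). At a log2 ratio of at least 1, 2 par genes were past it as higher, and 13 polarity genes as higher and 6 as lower (46.1% and 21.4%). Among the 18 polarity genes with at least 10 fitted reads in a group, 5 were past the fold as higher and 1 as lower (35.1% and 14.9%). No paired analysis was possible because the columns hold fitted values without variation between replicates, for which reason leaving out a library was not run either. The log2 ratio of par-1 ran from 5.91 to 9.68 over the scales and from 6.14 to 6.81 over the pseudocounts of 2 and 0.1, and its level in wild type was 3.04 fitted reads over the group.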

Other observations

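The 953 genes at 0 in both groups, among them mop-25.2, mop-25.3, mex-5, gpr-2 and air-1 of the polarity lists, had average log2 CPM values between -3.96 and 1.77 in the deposited table, although their fitted reads do not differ.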
